A study of Mus musculus with 6 samples.

Results

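The cyclins, cyclin-dependent kinases (CDKs), CDK inhibitors, pocket proteins and E2F factors that drive the cell cycle were compared between 2 fractions of mouse testis cells. Members were taken by gene symbol from the platform annotation of the array: cyclins, CDKs, inhibitors of the Cdkn1 and Cdkn2 families other than Cdkn1c, E2F genes, and Rb1, Rbl1 and Rbl2. The rule found 59 genes among the 18193 genes with a probe set of their own. Where a gene had several probe sets, the brightest on average stands for it. Ccnb1 had no probe set assigned to it alone and was not analysed here.

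Cells came from testes of prepubertal mice and had been separated with magnetic beads against Thy1, a glycoprotein of the cell surface that is used to enrich spermatogonial stem cells. The Thy1-positive fraction has 3 arrays, here P1, P2 and P3, and the Thy1-negative fraction has 3 arrays, here N1, N2 and N3, and within a fraction the arrays come from separate donor preparations per the study's design text. Whether arrays of different fractions share a preparation is not stated there. Per the same text, transplantation placed the stem cells mainly in the Thy1-positive fraction. Age in days, strain, and how many testes were pooled are not given in the sources used here. Total RNA was measured on Affymetrix arrays. Levels are given as log2(intensity + 1). A difference is the Thy1-positive mean less the Thy1-negative mean on that scale. A gene is called higher or lower at a limma adjusted p below 0.05 over all genes, with n = 3 arrays per fraction throughout.

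A cell passes from G1 into S phase when cyclin D with CDK4 or CDK6, and then cyclin E with CDK2, phosphorylate the pocket proteins RB1, RBL1 and RBL2 and so release E2F factors from repression. INK4 inhibitors (Cdkn2 genes) bind CDK4 and CDK6, whereas the CIP/KIP inhibitors p21 and p27 (Cdkn1a and Cdkn1b) act on a broader range of cyclin-CDK complexes. Cyclins A and B with CDK1 and CDK2 then carry the cell through S phase and mitosis. In the prepubertal testis both spermatogonia and immature Sertoli cells divide, and p27 is known for its part in ending Sertoli cell division. A further group of cyclins and CDKs, such as cyclin H with CDK7 and the T cyclins with CDK9, serves transcription by RNA polymerase II.

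The fractions are mixtures, and markers of their cell types differed between them. Thy1 itself measured 6.05, 6.52 and 6.05 on P1, P2 and P3 and 2.35, 2.35 and 2.74 on N1, N2 and N3, at least 11.4-fold higher in Thy1-positive cells (adjusted p = 0.000984). Of markers of undifferentiated spermatogonia 12 of 13 rose, and of those of germ cells in general 4 of 11. The median difference of these 11 was 1.59, and 9 of them had an unadjusted p of limma below 0.05. Of all 18193 genes, 7930 had such a p with all arrays, which is to be set beside each such count below. All 14 macrophage markers rose, with a summed intensity of 14993 to 21918 in Thy1-positive against 161 to 199 in Thy1-negative arrays, where 4 of them were at low signal (a mean below the 25th percentile of the arrays). Of Sertoli cell markers 12 of 13 fell, with a summed intensity of 4635 to 17091 in Thy1-positive arrays, P2 highest, against 76304 to 101703 in Thy1-negative arrays, and 2 of the 13 had low signal in the Thy1-positive fraction. Of peritubular myoid cell markers 5 of 7 fell, and 2 of 4 for Leydig cells. Among T lymphocyte markers 3 of 7 rose, and 2 of 3 erythroid ones fell. Endothelial markers had 1 of 6 higher and 1 lower. Of markers of differentiating spermatogonia 2 of 6 rose. Of those of meiotic prophase 0 of 10 were called by limma, with 5 at an unadjusted p below 0.05. Their median difference was nevertheless 1.63, towards the Thy1-positive fraction. N2 had the highest germ cell sum of the Thy1-negative arrays, 32043 against 11772 on N1 and 15827 on N3, while the Thy1-positive arrays held 44467 to 47271. The part of these cell types in the differences below was not tested. In such mixtures, fewer cells of a type and less RNA per cell cannot be told apart.

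Of the 59 members, 11 rose and 10 fell in Thy1-positive cells, and 38 were not called. The called share of 35.6% lies near the 33.0% of all genes, of which 18.5% were higher and 14.4% lower. The counts per class given below are to be set beside these shares. Small differences were also called for housekeeping genes. Of 11 measured, 4 were higher (0.11 to 0.44) and 1 was lower (Pgk1, -0.86). The median difference was 0.05 over the members and 0.01 over all genes. The fractions were fully apart, with no overlap of arrays, for 34 members (57.6%), against 51.4% of all genes. Of these, 18 were higher and 16 lower, against 31.6% and 19.8% of all genes. At least 2-fold differences were measured for 14 members, or 23.7%, against 21.6% of all genes, and 11 of the 14 were called. The range ran from -2.58 for Cdkn2c to 1.94 for Ccnd1, which was not called, so no member reached the 10-fold level the study set, against 331 of all genes by fold alone. With each array centred on its median, which moved the median of all genes to 0.13, 19 members were called higher and 11 lower, beside 57.4% and 14.6% of all genes.

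**Figure D1:**
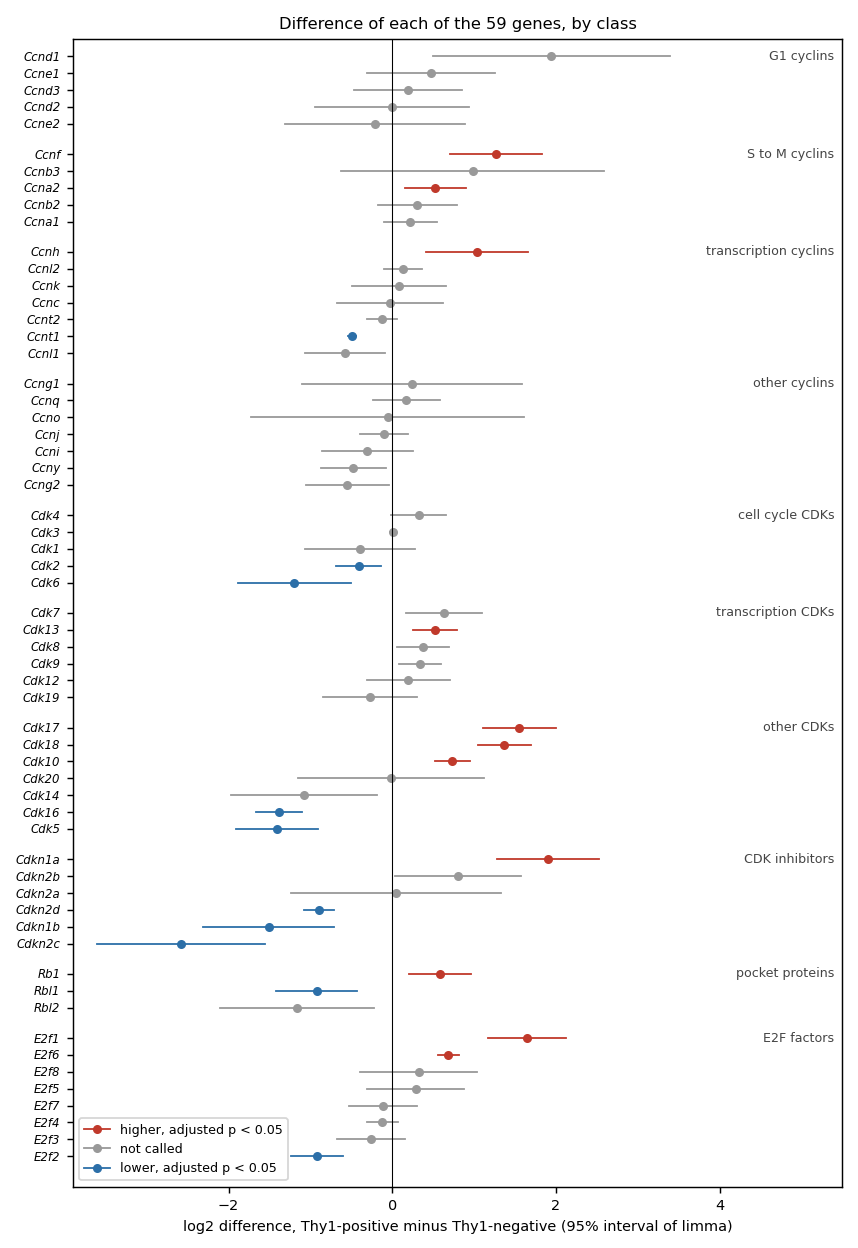
Log2 difference (Thy1-positive minus Thy1-negative, x axis) of each of the 59 genes, grouped by class, with the 95% interval of limma. Red points are the 11 genes called higher, blue points the 10 called lower and grey points the 38 not called, and both colours occur among the inhibitors, the pocket proteins and the E2F factors.

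The number called depended on single arrays. Leaving out N2 gave 18 higher and 13 lower, and leaving out P2 gave 10 and 8. Both left out together gave 20 and 11. The omission of N1 gave 7 and 7, that of P1 6 and 6, and that of N3 or P3 6 and 5 each. Of members not called with all arrays, the fit without N2 called Ccnb3, Ccnd1, Ccng2, Ccnl1, Ccnl2, Ccny, Cdk7, Cdk8, Cdk9, Cdk14 and E2f5, and the fit without P2 called Ccnb2, Ccnq, Cdk7 and Rbl2. In every one of these 6 fits without 1 array the 21 called members kept their direction. In all 6 the genes Cdk10, Cdk17, Cdk18, Cdkn1a, E2f1 and E2f6 were called higher and Ccnt1, Cdk5, Cdk16, Cdkn2d and E2f2 lower, which makes 11 of the 21. Another 9 were called in some of the 6, and Cdk2 in none. For 16 of the 21 called members, N2 was the array of its fraction closest to the mean of the other fraction.

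Deposited values were exactly equal on at least 2 arrays of a fraction for 7 members (11.9%), against 6.83% of all genes. Among called members this held for 4 of 21 (19.0%), against 3.25% of called genes. These were Ccnt1, Cdk17, Cdk18 and Cdkn1a, all of them called in each of the 6 fits without 1 array. Cdkn1a and Ccnb3 had 1 single value on P1, P2 and P3. The spread between arrays is then understated, and the SE of limma for such genes comes in part from the spread of other genes.

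Promoters were searched for the letters of motifs through which E2F and the G2/M regulators are known to act. Those of Cdkn2c, E2f2 and Cdk2 are shown because they are the promoters of called members with an E2F match, and that of Ccnf as an example with the CHR element and CCAAT, chosen after the matches were seen. They come from RefSeq on GRCm38.p6, from 250 bases before to 50 bases after the annotated start, 5' to 3' on the strand of the gene. Capitals mark matches on either strand to TTCCCGC or TTGGCGC (core of the E2F motif), to TTTGAA or TTCGAA (the CHR element), and to CCAAT (the NF-Y motif). Where GCGCCAA, the reverse complement of an E2F core, is followed by T, it counts for both E2F and CCAAT.
Cdkn2c, chr4:109666707-109667006, strand minus: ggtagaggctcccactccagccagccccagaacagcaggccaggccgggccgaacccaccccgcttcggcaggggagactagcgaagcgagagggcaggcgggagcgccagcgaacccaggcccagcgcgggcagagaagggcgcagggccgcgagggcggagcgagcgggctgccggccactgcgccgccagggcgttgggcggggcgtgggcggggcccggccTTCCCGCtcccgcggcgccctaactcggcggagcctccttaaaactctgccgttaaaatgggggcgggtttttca
E2f2, chr4:136172024-136172323, strand plus: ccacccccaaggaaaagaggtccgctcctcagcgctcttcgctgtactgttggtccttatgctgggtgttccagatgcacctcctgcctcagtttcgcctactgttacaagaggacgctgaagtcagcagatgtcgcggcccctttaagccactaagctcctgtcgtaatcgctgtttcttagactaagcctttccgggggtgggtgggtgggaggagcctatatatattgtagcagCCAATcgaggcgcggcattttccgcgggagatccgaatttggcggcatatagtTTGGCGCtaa
Cdk2, chr10:128705002-128705301, strand minus: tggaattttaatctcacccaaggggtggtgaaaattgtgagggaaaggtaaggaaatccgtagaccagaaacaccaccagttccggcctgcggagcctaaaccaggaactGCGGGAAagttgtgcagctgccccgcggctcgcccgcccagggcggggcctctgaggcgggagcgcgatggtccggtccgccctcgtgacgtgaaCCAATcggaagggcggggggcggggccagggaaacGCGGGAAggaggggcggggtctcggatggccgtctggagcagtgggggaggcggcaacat
Ccnf, chr17:24251360-24251659, strand minus: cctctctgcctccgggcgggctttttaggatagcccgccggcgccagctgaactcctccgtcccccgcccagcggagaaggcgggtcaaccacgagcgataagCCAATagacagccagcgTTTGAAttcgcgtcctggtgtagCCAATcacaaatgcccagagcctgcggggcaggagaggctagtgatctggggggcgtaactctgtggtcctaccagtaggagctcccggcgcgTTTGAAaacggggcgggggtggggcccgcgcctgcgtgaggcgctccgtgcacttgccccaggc
The promoters of Cdkn2c, E2f2 and Cdk2 hold 1, 1 and 2 E2F matches, and that of Ccnf holds 2 TTTGAA and 2 CCAAT matches. Cdkn2c and E2f2 each have a second promoter in the table, with no E2F match. Among called members, the CHR element was also found in a promoter of Cdk16 and in the second one of E2f2, both genes being lower. CCAAT was also found for the called members Cdk10, Cdk16, Cdk18, Cdkn1b and Cdkn2d, and in the second promoters of Cdkn2c and E2f2. In all, 46 members matched the table, with 53 promoters, of which 10 (18.9%) hold an E2F match, against 6.81% of 32851 mouse promoters of this length. Of the promoters of higher members 0 of 8 hold one, of lower members 3 of 12, and of members not called 7 of 33. Other forms of the E2F motif were not searched, so a promoter without a match may still hold an E2F site. The 8 belong to 7 of the 11 higher members and the 12 to 9 of the 10 lower ones. Ccna2, Ccnh, Cdk17 and Rb1, called higher, and Cdk5, called lower, had no promoter to search. For the CHR element the shares were 18.9% of member promoters and 19.2% of all promoters, and for CCAAT 47.2% and 37.4%. A CHR match was held by 1 of the 8 promoters of higher members, 2 of the 12 of lower members and 7 of the 33 of members not called. These matches describe letters in the window and are not binding sites.

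Among the CDK inhibitors, 1 of 6 rose and 3 fell in Thy1-positive cells, beside 18.5% and 14.4% of all genes. Cdkn2c, which encodes the INK4 inhibitor p18 and whose promoter is the first shown above, had the widest called difference of all members. It measured 5.84, 6.61 and 6.34 on P1, P2 and P3, against 9.33, 8.15 and 9.05 on N1, N2 and N3. Every Thy1-positive array lay below every Thy1-negative one, and the gene was 5.98-fold lower (-2.58, SE 0.39, adjusted p = 0.0113). Without N3 or P3 it was not called, with differences between -2.93 and -2.34 over the 6 fits without 1 array. Cdkn2d, which encodes the INK4 inhibitor p19, measured 7.54, 7.37 and 7.36 in Thy1-positive against 8.33, 8.24 and 8.38 in Thy1-negative arrays. These groups were tight and apart, and Cdkn2d fell 1.86-fold (-0.89, SE 0.07, adjusted p = 0.00281).

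Cdkn1b, which encodes p27, measured 8.27, 9.29 and 8.53 on P1, P2 and P3 and 10.33, 9.98 and 10.31 on N1, N2 and N3. P2, the Thy1-positive array with the most Sertoli cell signal, was the highest of its fraction, and a link between these was not tested. Cdkn1b was 2.85-fold lower (-1.51, SE 0.30, adjusted p = 0.0228), and it was called without N2 or P2 but not without N1, N3, P1 or P3 (-1.81 to -1.30). Its other probe set was dim and differed by -0.01. Cdkn1a, which encodes p21, the inhibitor that p53 induces, went the other way. It stood at 7.39 on each of P1, P2 and P3, as the same deposited value, against 5.22, 5.998 and 5.24 on N1, N2 and N3, and rose 3.74-fold (1.90, SE 0.24, adjusted p = 0.00740). Its second probe set was also called higher (2.06, adjusted p = 0.0109 over all probe sets).

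Neither gene of the locus that encodes p16, p19Arf and p15 was called. Cdkn2b (p15) measured 6.61, 5.84 and 6.44 in Thy1-positive against 5.08, 5.79 and 5.62 in Thy1-negative arrays. P2 and N2 lay close together, and the difference of 0.80 (SE 0.29) had an adjusted p of 0.105. Cdkn2a, whose probe set is not annotated here by transcript, so that p16 and p19Arf cannot be told apart, measured 4.89, 4.05 and 4.52 against 3.78, 5.35 and 4.19. Its arrays overlapped, with N2 highest of all 6 and a 95% interval of the difference from -1.24 to 1.33.

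None of the 5 G1 cyclins was called by limma, and 1 had an unadjusted p below 0.05. That gene was Ccnd1, which encodes cyclin D1. It measured 10.39, 9.48 and 10.02 on P1, P2 and P3 and 7.19, 9.01 and 7.87 on N1, N2 and N3. The groups did not overlap, but N2 lay close to P2, and the 3.84-fold difference (1.94, SE 0.55) missed the threshold with an adjusted p of 0.0552. Without N2 it was 2.44 and called. With arrays centred on their median it was called at 2.06, in a setting where 57.4% of all genes were called higher. Its second probe set was called higher (2.34, adjusted p = 0.0451 over all probe sets) and its dimmest was not (1.09, adjusted p = 0.515).

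Cyclin D2 has been linked to GDNF-driven division of stem spermatogonia in culture and is also made by Sertoli cells. Ccnd2 measured 12.51, 12.27 and 12.42 in Thy1-positive against 12.93, 11.66 and 12.62 in Thy1-negative arrays. N2 was the lowest of the 6 and N1 the highest, and the difference of -0.00 had a 95% interval from -0.95 to 0.94. Its 7 probe sets gave differences from -1.31 to 0.99 and none was called, with adjusted p values over all probe sets of 0.139 or more. Ccnd3, for cyclin D3, measured 9.97, 10.55 and 10.17 against 10.41, 9.69 and 10.02, with full overlap (0.19, SE 0.25). A second, less bright probe set of Ccnd3 was called higher (2.34, adjusted p = 0.0237 over all probe sets), so the probe sets of this gene disagree.

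The E cyclins, partners of CDK2 at the G1/S boundary, overlapped between the fractions. Ccne1 measured 7.53, 7.30 and 7.49 against 6.38, 7.45 and 7.08 (0.47, SE 0.30, adjusted p = 0.310), by a probe set that Affymetrix marks as able to cross-hybridise. Ccne2 measured 9.59, 8.97 and 9.36 in Thy1-positive cells, against 8.92, 10.31 and 9.34 in Thy1-negative cells, N2 being the highest of all (-0.21, SE 0.42, adjusted p = 0.789). Without N2 the difference of Ccne2 was 0.18.

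Of the kinases that these cyclins activate, Cdk6 and Cdk2 fell and Cdk4 was not called. Cdk6 measured 8.18, 7.80 and 7.91 on P1, P2 and P3 against 9.68, 8.82 and 8.996 on N1, N2 and N3. Every Thy1-positive array was lower, 2.29-fold on average (-1.20, SE 0.26, adjusted p = 0.0289). Both other probe sets of Cdk6 were called lower too, by -1.79 and, near background, by -0.14. Cdk6 was not called without N3, P1, P2 or P3 (-1.37 to -0.94 over the 6 fits). Cdk4, which shares its role, measured 11.49, 11.75 and 11.62 in Thy1-positive against 11.48, 11.08 and 11.33 in Thy1-negative arrays. The highest Thy1-negative value lay just under the lowest Thy1-positive one, and Cdk4 was not called (0.32, SE 0.13, adjusted p = 0.127). Its kept probe set, like that of Ccne1, is marked by Affymetrix as able to cross-hybridise. The other Cdk4 probe sets differed by 0.25 and 0.48 and were not called. Cdk2, whose promoter is also shown above, measured 9.88, 9.63 and 9.93 against 10.10, 10.30 and 10.26. The drop was small, 1.33-fold (-0.41, SE 0.10, adjusted p = 0.0398), and its call was lost without any one of the 6 arrays, N1, N2, N3, P1, P2 or P3 (-0.47 to -0.32). Cdk3 lay below the median intensity throughout, at a mean of 3.43 for the Thy1-positive and 3.42 for the Thy1-negative arrays.

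**Figure D2:**
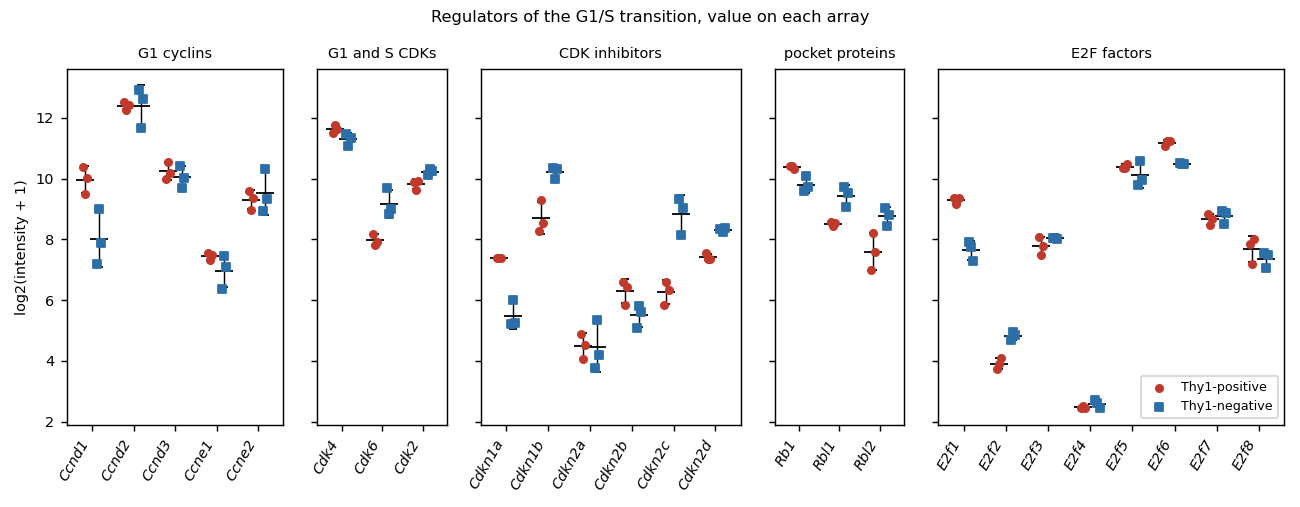
Value of each G1/S regulator on each array (y axis, log2(intensity + 1)), Thy1-positive arrays as red circles left of Thy1-negative arrays as blue squares, with the mean as a bar and the SD of 3 arrays as whiskers. Cdkn2c, Cdkn1b, Cdk6 and Rbl1 lie lower and Cdkn1a and E2f1 higher in Thy1-positive cells, while Ccnd2 and Ccne2 overlap.

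Of the pocket proteins Rb1 rose and Rbl1 fell. Rb1, the retinoblastoma gene, measured 10.41, 10.40 and 10.30 in Thy1-positive against 9.57, 10.08 and 9.72 in Thy1-negative arrays, 1.49-fold higher (0.58, SE 0.14, adjusted p = 0.0389). Rbl1, which encodes p107, measured 8.56, 8.44 and 8.54 against 9.72, 9.05 and 9.54, 1.89-fold lower (-0.92, SE 0.19, adjusted p = 0.0236). Neither pair of groups overlapped, but of the 6 fits without 1 array both genes were called in the fit without N2 alone, and not without N1, N3, P1, P2 or P3 (0.47 to 0.72 for Rb1 and -1.11 to -0.78 for Rbl1). Another probe set of Rbl1 above the median intensity differed by 0.56 (adjusted p = 0.111 over all probe sets), and the mean of all its probe sets by -0.11. Rbl2, for p130, which is known from resting cells, measured 7.01, 8.20 and 7.57 against 9.03, 8.44 and 8.80. P2 was nearest to the Thy1-negative arrays, and the difference of -1.16 (SE 0.36) missed the threshold (adjusted p = 0.0681). A fit without both arrays numbered 2 called it (-1.63).

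Of 8 E2F genes, 2 rose and 1 fell, a called share of 37.5% beside 33.0% of all genes. E2f1, the activator E2F that RB1 restrains, measured 9.35, 9.15 and 9.36 on P1, P2 and P3, against 7.90, 7.73 and 7.29 on N1, N2 and N3. The gap was wider than the spread within either group, and E2f1 rose 3.12-fold (1.64, SE 0.18, adjusted p = 0.00574). A second E2f1 probe set was called higher by 0.59 and the remaining one lay near background. E2f6, a repressor that works without pocket proteins and with Polycomb group partners, measured 11.08, 11.23 and 11.23 against 10.52, 10.49 and 10.47, and rose 1.61-fold (0.69, SE 0.05, adjusted p = 0.00235). Its other probe set differed by -0.18 and was not called, and the mean of its probe sets by 0.25 (adjusted p = 0.0665). E2f2, an activator like E2f1, moved the opposite way at a low signal: 3.75, 3.903 and 4.09 in Thy1-positive against 4.68, 4.97 and 4.85 in Thy1-negative arrays, 1.89-fold lower (-0.92, SE 0.12, adjusted p = 0.00814). Its other probe set, of like brightness, differed by -0.22 and was not called (adjusted p = 0.138 over all probe sets), and the mean of both differed by -0.57, which was called.

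The remaining E2F genes were not called. E2f3, also an activator, measured 8.06, 7.48 and 7.77 against 8.05, 8.04 and 8.01 (-0.26, SE 0.16), and its other probe set differed by 0.79 (not called). E2f5, a repressor that partners p130, measured 10.34, 10.35 and 10.48 in Thy1-positive cells and 9.79, 10.57 and 9.95 in Thy1-negative cells, where N2 alone exceeded the Thy1-positive arrays (0.29, SE 0.23). Without N2 it was called (0.52). The atypical repressors E2f7 (8.83, 8.48 and 8.67 against 8.93, 8.50 and 8.88) and E2f8 (7.86, 7.19 and 8.004 against 7.54, 7.05 and 7.49) overlapped. Both had P2 and N2 as the lowest arrays of their fractions. E2f4 was at low signal in both fractions (2.45, 2.53 and 2.46 against 2.71, 2.62 and 2.46), so its level was not measured.

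Among cyclins of S phase and mitosis 2 of 5 rose, beside 18.5% of all genes. Ccnf, whose promoter is the fourth shown, encodes an F-box protein that directs the destruction of targets in G2. It measured 10.10, 9.65 and 10.08 on P1, P2 and P3 and 8.53, 9.03 and 8.46 on N1, N2 and N3. No array overlapped, and Ccnf rose 2.41-fold (1.27, SE 0.21, adjusted p = 0.0146). However, it was not called without N1, N3, P1 or P3 (1.16 to 1.45 over the 6 fits). The second Ccnf probe set differed by 1.15 and was not called (adjusted p = 0.0813 over all probe sets). Ccna2, the A-type cyclin of dividing somatic and germ cells, measured 12.00, 11.75 and 12.04 against 11.27, 11.65 and 11.29. Its 1.44-fold rise (0.53, SE 0.14, adjusted p = 0.0476) was near the threshold and was lost without N1, N3, P1, P2 or P3 (0.46 to 0.65). The second Ccna2 probe set differed by -0.44 and was not called.

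The B cyclins and their kinase were not called. Ccnb2 measured 11.67, 11.06 and 11.50 in Thy1-positive against 11.23, 10.98 and 11.10 in Thy1-negative arrays, with overlap (0.31, SE 0.18). Cdk1, the kinase of mitosis, measured 11.11, 10.62 and 11.03 against 11.62, 10.87 and 11.47, again with overlap (-0.40, SE 0.26, adjusted p = 0.317). P2 and N2 were the lowest arrays of their fractions for both genes. Ccnb3, a cyclin of early meiotic prophase, stood at the same 4.25 on P1, P2 and P3. On N1, N2 and N3 it stood at 2.61, 4.58 and 2.61, so N2 alone among the Thy1-negative arrays carried signal. N2 was also the array of that fraction with the most meiotic signal, and a link between these was not tested. Ccna1, the A-type cyclin that late spermatocytes need, was below the median intensity everywhere (3.43, 3.80 and 3.44 against 3.34, 3.26 and 3.42).

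Of 7 cyclins of transcription 1 rose and 1 fell, and of 6 CDKs of transcription 1 rose and 0 fell. Over all genes these shares were 18.5% and 14.4%. Ccnh, which encodes cyclin H, the partner of CDK7 in the CDK-activating kinase and in TFIIH, measured 13.18, 12.81 and 12.99 against 11.58, 12.38 and 11.91. The fractions did not overlap, and it rose 2.05-fold (1.04, SE 0.24, adjusted p = 0.0315). A second Ccnh probe set was called as well (1.10) and the dimmest was not (0.22). Without N1, N3, P1, P2 or P3 the kept probe set was not called (0.85 to 1.25 over the 6 fits). Cdk7 itself differed by 0.64 (SE 0.18, adjusted p = 0.0521) and was not called, while another of its probe sets, less bright, was called lower (-1.75). Mnat1, the assembly subunit of that kinase, differed by 0.12 (SE 0.14). Cdk13, which with cyclin K phosphorylates RNA polymerase II, measured 9.12, 9.15 and 9.15 against 8.44, 8.82 and 8.60, and rose 1.43-fold (0.52, SE 0.10, adjusted p = 0.0217), a call that was lost without N3, P1, P2 or P3 (0.43 to 0.62). Another Cdk13 probe set above the median intensity differed by -0.27 (adjusted p = 0.583 over all probe sets), and the mean of all its probe sets by 0.13, which was not called.

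Ccnt1, which encodes cyclin T1 of the elongation factor P-TEFb, was lower by a small amount with very little spread. It measured 8.01, 8.03 and 8.07 in Thy1-positive against 8.53, 8.53 and 8.52 in Thy1-negative arrays, 1.40-fold lower (-0.49, SE 0.02, adjusted p = 0.000468), with N1 and N2 at the same deposited value. Its other probe set differed by -0.21 and was not called. Cdk9, the kinase of P-TEFb, differed by 0.34 (SE 0.10, adjusted p = 0.0567) and Cdk8 of the Mediator kinase module by 0.38 (SE 0.12, adjusted p = 0.0783). Both were higher on all Thy1-positive arrays, although a dim second probe set of Cdk9 differed by -0.88 (not called). The other transcription members were Ccnc, Ccnk, Ccnl1, Ccnl2, Ccnt2, Cdk12 and Cdk19, not called, with differences from -0.58 (Ccnl1) to 0.19 (Cdk12). Other probe sets of these genes were called in both directions. One of Ccnl2 was higher (0.59), and 1 each of Cdk19, a relative of Cdk8 (-1.74), Ccnt2 (-1.71) and Cdk12 (-1.12) was lower. For Ccnt2 and Cdk12, brighter probe sets besides the kept one were not called. They differed by -0.18 and 0.45 for Ccnt2, and by 0.66, 0.67, 0.61 and -0.94 for Cdk12.

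Of 7 other CDKs, 3 rose and 2 fell, beside 18.5% and 14.4% of all genes. At least 2-fold differences held for 5 of the 7, beside 21.6% of all genes. The PCTAIRE kinases, which are atypical CDKs named for a stretch of amino acids, split. Cdk17 measured 10.01, 9.96 and 9.96 on P1, P2 and P3 against 8.29, 8.79 and 8.20 on N1, N2 and N3. It rose 2.93-fold (1.55, SE 0.17, adjusted p = 0.00569), while its other probe set, below the median intensity, differed by 0.03 and was not called. Cdk18 rose 2.58-fold (1.37, SE 0.12, adjusted p = 0.00394) at a modest signal, with 4.60, 4.60 and 5.00 against 3.37, 3.38 and 3.35. Cdk16, which is known from mouse knockouts to be needed for late sperm development and is activated by cyclin Y, measured 11.70, 11.52 and 11.56 against 13.05, 12.78 and 13.10. It was 2.61-fold lower (-1.39, SE 0.11, adjusted p = 0.00288). Of its other probe sets 2 were called lower (-1.37 and -1.89), 1 was not (-0.30, adjusted p = 0.483 over all probe sets) and 1 lay near background. The kept probe set of Cdk16 carries the Affymetrix suffix s_at, and the one at -0.30 is the brightest of the others. With x_at and s_at probe sets left out, that one stood for Cdk16, which was not called, and 9 members were lower in place of 10. The split shows in the plot of mitotic, transcription-linked and other members.

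Cdk5, known from neurons and dependent on its own activators instead of cyclins, measured 8.53, 9.16 and 8.66 in Thy1-positive against 10.34, 10.08 and 10.16 in Thy1-negative arrays. No array overlapped, and it was 2.65-fold lower (-1.41, SE 0.19, adjusted p = 0.00878). Other Cdk5 probe sets differed by -1.04 (adjusted p = 0.0543 over all probe sets) and -0.08, neither of them called. Cdk10, the partner of cyclin Q, measured 9.18, 9.09 and 9.20 against 8.35, 8.59 and 8.34 and rose 1.66-fold (0.73, SE 0.08, adjusted p = 0.00605). Ccnq, for that cyclin, differed by 0.17 (SE 0.16, adjusted p = 0.490). Cdk14 measured 7.54, 7.97 and 7.71 against 9.36, 8.17 and 8.93. Its difference of -1.08 (SE 0.34, adjusted p = 0.0732) was not called with all arrays and was called without N2 (-1.40). Cdk20 overlapped (-0.02, SE 0.43).

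**Figure D3:**
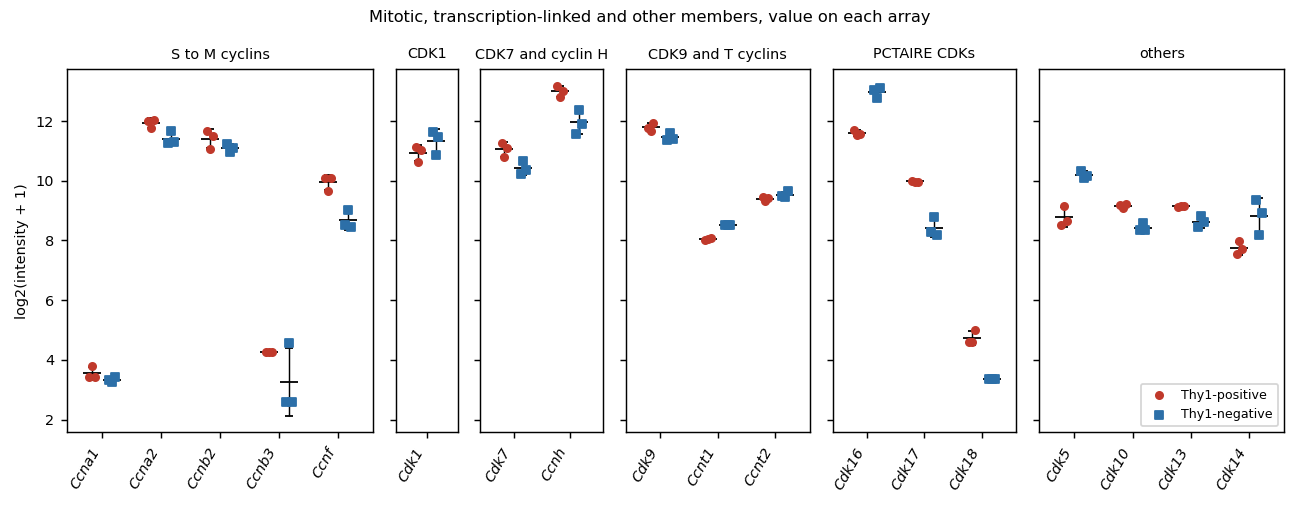
Value of the mitotic, transcription-linked and other members on each array (y axis, log2(intensity + 1)), Thy1-positive arrays as red circles left of Thy1-negative arrays as blue squares, with the mean as a bar and the SD of 3 arrays as whiskers. Cdk17 and Cdk18 lie higher and Cdk16 and Cdk5 lower in Thy1-positive cells, and for Ccnb3 N2 alone stands apart from the other Thy1-negative arrays.

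Of the 7 other cyclins limma called 0, with 2 at an unadjusted p below 0.05. These were Ccng2 (-0.55, SE 0.19, adjusted p = 0.0943) and Ccny (-0.48, SE 0.15, adjusted p = 0.0733), whose Thy1-positive arrays all lay below the Thy1-negative ones. Ccny encodes cyclin Y, and its other probe sets above the median intensity disagreed. One of the dimmest was called lower (-1.13), while a probe set about as bright as the kept one differed by 0.57 and another by 1.04, neither of them called. Ccng1, a p53 target, overlapped by the kept probe set (0.25, SE 0.51), and a second one was called lower (-0.59). Ccni, Ccnj, Ccno and Ccnq gave differences from -0.30 to 0.17.

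Several probe sets exist for 38 of the 59 members, and for 21 of these the calls among their probe sets differ, although 0 members had probe sets called in opposite directions. For 9 members another probe set was called where the kept one was not. Of all probe sets on the array, 23.4% were called. With the mean of all probe sets in place of the brightest, 8 of the 11 higher and 9 of the 10 lower members were called in the same direction, and Ccna2 (0.05), Cdk13 (0.13), E2f6 (0.25) and Rbl1 (-0.11) were not called. Of the 21 called members, 3 (Ccna2, Cdk2 and Rb1) missed the threshold once every probe set entered the adjustment, with limma adjusted p = 0.0619, 0.0519 and 0.0509.

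The genes around these members in the same pathways were counted from lists of 88 genes, of which 86 had a probe set. Of these, 28 rose and 7 fell, or 40.7%, against the 33.0% of all genes, with a median difference of 0.43. Over all genes 18.5% were higher and 14.4% lower, shares to set beside the counts of the single lists. Leaving out P2 gave 38 higher and 2 lower, and leaving out N2 gave 34 and 9. The omission of N1, N3, P1 or P3 gave 12 and 3, 10 and 3, 11 and 2, and 8 and 1, in that order. Of 10 DP, MuvB and Myb partners of E2F and the pocket proteins, 4 rose and 2 fell. Mybl2 (B-MYB), which drives G2/M genes, rose 3.41-fold (1.77, SE 0.23), Lin37 of the MuvB core by 0.89 (SE 0.17) and Tfdp1, a DP partner of E2F, by 0.76 (SE 0.17). Mybl1 (A-MYB), a factor of meiotic spermatocytes, was 6.22-fold lower (-2.64, SE 0.58), while the meiotic prophase markers had a median difference of 1.63. Rbbp4 fell by 0.39 on the log2 scale (SE 0.05).

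Of 19 E2F targets of the G1/S transition 9 rose and 0 fell by limma, beside 18.5% and 14.4% of all genes. In either direction 13 had an unadjusted p below 0.05, beside 7930 of all 18193 genes, and the median difference was 0.64. Uhrf1, which maintains DNA methylation at replication, rose 2.40-fold (1.26, SE 0.16), Mcm3 of the replicative helicase 1.93-fold (0.95, SE 0.12), and Cdt1, which loads that helicase, 1.78-fold (0.83, SE 0.19). Of 16 G2/M genes 7 rose and 0 fell, beside the same shares of all genes. Here 11 had an unadjusted p below 0.05, and the median was 0.71. Cenpe, a motor of the kinetochore, rose by 1.35 (SE 0.22), the spindle motor Kif11 by 1.17 (SE 0.27) and the checkpoint kinase Ttk by 1.09 (SE 0.22), while Mki67 differed by 0.17 (SE 0.20, adjusted p = 0.605). Of 17 genes of ubiquitin ligases that destroy cyclins and inhibitors 5 rose and 0 fell, with 10 at an unadjusted p below 0.05 and a median of 0.26. Among them were Cdc34 (1.14, SE 0.25), Anapc11 (0.87, SE 0.19) and Anapc1 (0.79, SE 0.13), and Skp2, which targets p27, differed by 0.63 (SE 0.18, adjusted p = 0.0557).

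Of 14 CDK subunits and enzymes that modify CDKs, 1 rose and 2 fell, with a median of 0.18. The phosphatase gene Cdc25c rose by 0.51 (SE 0.03). Cables1, which links CDKs to a kinase that inhibits them, was 11.2-fold lower (-3.49, SE 0.59), the single gene of these lists past 10-fold, and Cdc25b fell by 1.00 on the log2 scale (SE 0.22). Of 10 p53 and Myc regulators of the inhibitors 2 rose and 3 fell, with a median of -0.25. Mdm2, a p53 target that restrains p53, rose 2.58-fold (1.37, SE 0.14, adjusted p = 0.00527), and Zbtb17 (MIZ1) rose by 0.38 (SE 0.09). Gadd45g (-1.38, SE 0.29), Gadd45b (-1.27, SE 0.34) and Myc (-1.08, SE 0.26) fell.

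**Figure D4:**
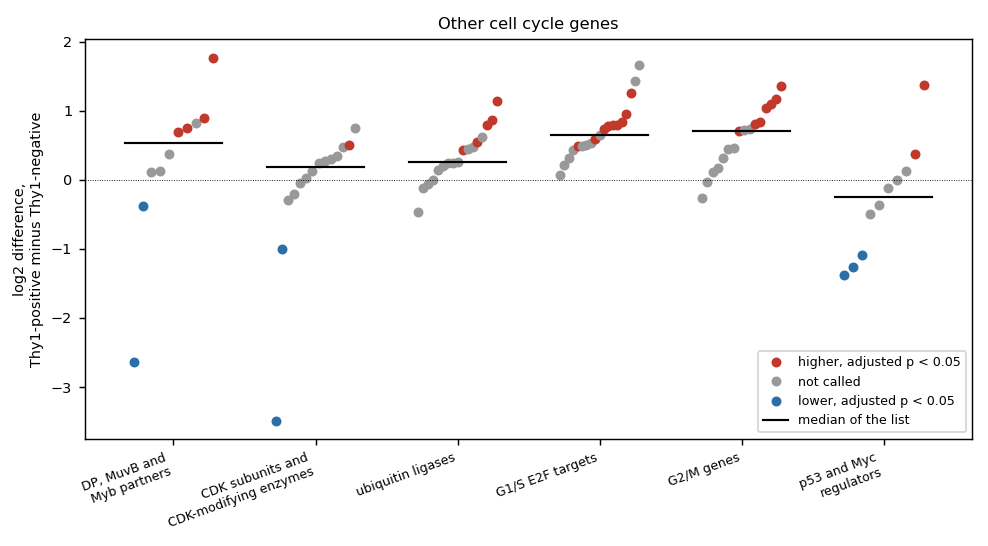
Log2 difference (Thy1-positive minus Thy1-negative, y axis) of each measured gene in 6 lists of other cell cycle genes, with red for called higher, blue for called lower, grey for not called and a black bar at the median of each list. The medians of the G1/S targets and the G2/M genes are 0.64 and 0.71, and Cables1 at -3.49 is the lowest point.

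**Figure D5:**
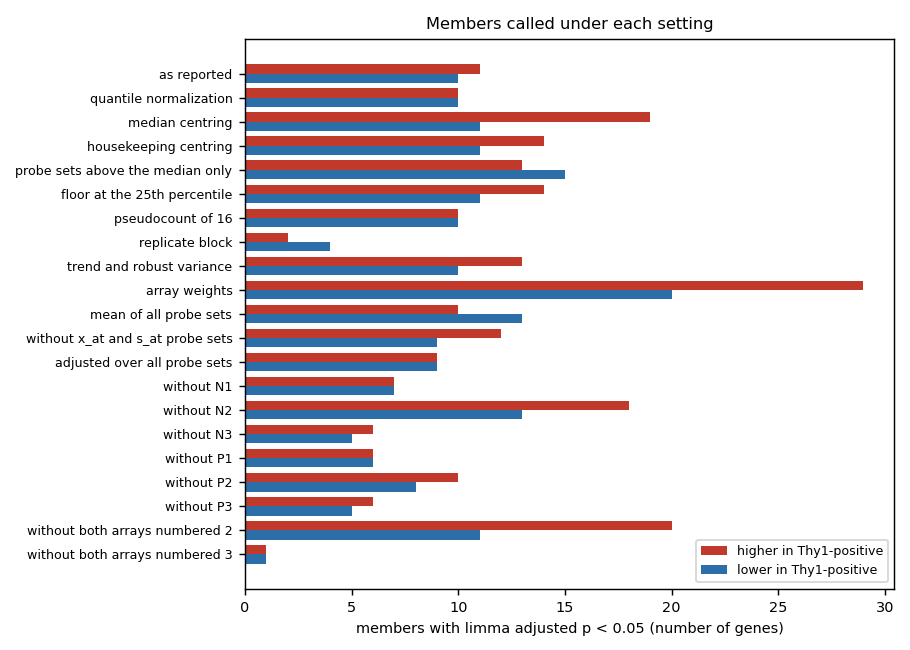
Number of members (x axis) called higher (red, upper bar) and lower (blue, lower bar) in Thy1-positive cells under each setting, with the reported setting at the top at 11 and 10. The counts drop to 1 and 1 without both arrays numbered 3 and reach 29 and 20 with array weights.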

How the data were processed

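RNA of 3 Thy1-positive and 3 Thy1-negative testis cell samples was measured on 1 Affymetrix array each. The deposited table gives 1 linear intensity per probe set and array. The authors named GCRMA per the submitters' processing notes, while the labels describe Affymetrix's own software with global scaling. Which procedure produced these values was not given in the sources used here. Of 45101 probe sets, 64 controls were left out. Gene symbols came from the platform annotation: 1 gene for 34945 probe sets, several for 932 and none for 9160. A comparison with RefSeq genes of GRCm38.p6 updated 0 symbols and left 204 unmatched.

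The log2 of each deposited intensity plus 1 was analysed without further normalization or filtering. Limma 3.58.1 (lmFit and eBayes, R 4.3.3) compared the fractions over 18193 genes, 2-sided, with Benjamini-Hochberg adjustment at 0.05. The script was tested on simulated data. SD is between 3 arrays and SE is that of limma. The number of arrays limits the precision. Arrays with the same replicate number are not stated to share a preparation, and no block was used.

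Named genes were 30 core members whatever their values, other members called with a log2 difference of at least 1, and up to 3 genes per direction of each pathway list. Ccnt1, Cdk10, Cdk13, Cdk14 and the members given by difference alone were chosen after their values were seen. Members and lists were chosen with earlier results of these data known. Alternatives numbered 18, and 2 were added after the data were seen. Promoters came from RefSeq tables of GRCm38.p6.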

Additional observations from a re-analysis of the deposited data

How the results depend on the processing

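Without 1 array the members called higher numbered 6 to 18 and those lower 5 to 13, all genes higher 1350 to 4273 and lower 1163 to 3008, and other cell cycle genes higher 8 to 38 and lower 1 to 9. Array weights, whose fit did not fully converge, gave 29 members higher and 20 lower, 7518 and 4750 of all genes and 60 and 14 of the other cell cycle genes. With arrays centred on their median, which moved the median of all genes to 0.13, 19 members, 10436 genes and 49 other cell cycle genes were higher. With the replicate number as a block, 2 members were higher and 4 lower, 931 and 548 of all genes and 2 and 1 of the other cell cycle genes. Same-numbered arrays deviated from their group means with r = -0.16, -0.17 and -0.04 across genes, and not every array correlated best with its own number. A shared preparation need not give a positive r, so these values do not settle whether the numbers pair the arrays. Without both arrays numbered 2, chosen after seeing the data, 20 members and 44 other cell cycle genes were higher. Without both numbered 3, also chosen after seeing the data, 1 member was higher and 1 lower, and 149 and 61 of all genes. Of the other cell cycle genes limma then called 0 higher and 0 lower, with 15 and 4 at an unadjusted p below 0.05. This setting has 2 arrays per fraction. Causes were not tested.

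No called member changed direction under any of these settings. Among named members not called, Ccnd2 ran from -0.37 to 0.26 without 1 array, being above 0 without N1, N3 or P2, and turned to 0.12 with median centring and 0.10 without both arrays numbered 3. Ccne2 ran from -0.52 to 0.18 without 1 array, being above 0 without N2, and turned to 0.041 with array weights and 0.35 without both arrays numbered 2, where Ccnd3 turned to -0.14. Cdkn2a ran from -0.28 to 0.50 without 1 array, being below 0 without N1, N3 or P1, and turned to -0.10 without both numbered 3. E2f3 turned to 0.26 with the mean of its probe sets, and E2f4 and E2f7 to 0.00085 and 0.013 with median centring. Probe sets near background, such as those of E2f4, Ccna1 and Cdk3, limit what these arrays show of their genes.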
